A study of Mus musculus with 24 samples.

Results

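The comparison asked what a mixture of IFN-gamma, IL-6, IFN-alpha and TNF-alpha did to cultured microglia beyond IFN-gamma alone. Its members were chosen from the sample labels: 3 libraries of cells given the mixture and 3 libraries of cells given IFN-gamma only, 6 of the 24 libraries of the series. The groups are called mixture and IFNg. Both came from neonatal MRL/lpr mice, a lupus-prone strain with the lpr mutation of Fas, the death receptor that limits lymphocyte survival, so both groups and the controls carry that mutation. Brains were digested with enzymes, CD11b-positive cells were taken on magnetic beads, and the cells were kept for 48 h in DMEM/F-12 with 10% fetal bovine serum before 6 h with the cytokines. The neonatal libraries further include TNFa, IFNa or IL6 given alone and cells left unstimulated, 3 libraries each. The remaining 6 libraries are from adult microglia without cytokine, taken at 16 weeks of age from 3 MRL/lpr and 3 MRL/MpJ samples, where MRL/MpJ is the related strain without the lpr mutation. Cytokine doses are not given in the labels, so it is not known whether IFN-gamma was at the same dose alone and in the mixture. The mixture adds IL-6, IFN-alpha and TNF-alpha together, and their separate shares in a difference from IFNg cannot be told apart within this comparison.

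IFN-gamma acts through JAK1 and JAK2 on genes with gamma-activated sites (GAS) and induces guanylate-binding proteins, MHC molecules and IRF1. IFN-alpha acts through TYK2 and JAK1 on antiviral genes with the interferon-stimulated response element (ISRE). TNF-alpha frees NF-kappaB from its inhibitors, several of which are themselves NF-kappaB targets, and IL-6 acts through gp130 on STAT3. IKK-epsilon, encoded by Ikbke, the gene the series is titled after, is a kinase related to TBK1 that phosphorylates interferon regulatory factors and is itself induced by inflammatory cytokines. Microglia are the resident macrophages of the brain and carry the receptors for all of these cytokines.

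Read totals were 14867764 to 18984003 in mixture libraries and 15406171 to 16287192 in IFNg libraries. TMM scaling factors, which correct for the make-up of a library, were 0.759 to 0.906 in mixture libraries and 0.946 to 1.03 in IFNg libraries, so the groups did not overlap in scaling. The labelled cell type was checked against 11 markers of microglia and macrophages, whose summed level was 7584 to 9567 CPM in mixture libraries and 8673 to 10307 CPM in IFNg libraries. Tmem119, a marker of microglia in intact brain, was close to 0, at 0.891, 1.17 and 0.486 CPM in mixture libraries, against 2.05, 0.962 and 1.75 CPM in IFNg libraries, while the purinergic receptor gene P2ry12 was present at 47.3, 44.5 and 59.8 CPM in mixture libraries, against 34.7, 43.1 and 42.2 CPM in IFNg libraries. Mixture replicate 2 stood apart in several genes that IFN-gamma induces, seen after its values were examined, and values without it are given beside the genes and lists that it moved. Irf1, a transcription factor that IFN-gamma induces, had 1281, 418 and 1356 CPM in mixture libraries, against 1199, 1385 and 1155 CPM in IFNg libraries. Irf8, a myeloid factor of the same family, had 2307, 651 and 2689.6 CPM in mixture libraries, against 2353, 2666 and 2257 CPM in IFNg libraries. Socs1, the feedback inhibitor of JAK kinases, had 515, 92.2 and 394 CPM in mixture libraries, against 389, 477 and 329 CPM in IFNg libraries. In each of these genes mixture replicate 2 lay below every IFNg library and the other mixture libraries did not.

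Of 14626 genes tested, 3844 passed the test between mixture and IFNg, which is 26.3%, with 1739 higher (11.9%) and 2105 lower (14.4%) in mixture libraries. Counts of called list members below are to be read beside these shares of all genes. The test was edgeR's quasi-likelihood test on read counts with the replicate number as a block, and a gene was called at a Benjamini-Hochberg adjusted p under 0.05 over all genes tested. Fold changes below are log2 of mixture over IFNg ± SE, levels are CPM, read counts scaled to a common library size with TMM factors, and adjusted p-values are from that test. At least 2-fold, 679 genes were higher and 501 were lower. The median log2 fold change over all genes was -0.02. RLE scaling gave 2074 higher and 1640 lower genes. Scaling by total counts alone gave 1139 higher and 4360 lower genes, with the median of all genes at -0.26. The balance of higher against lower calls thus moves with the scaling, while no gene was called in the opposite direction by any setting tried. In 4169 genes (28.5%) the 3 mixture libraries and the 3 IFNg libraries did not overlap. These are bulk samples, in which fewer cells of a type and less RNA per cell cannot be told apart. The labels do not say that the replicates were separate animals or cultures, so p-values measure the spread between these libraries, which may be technical.

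**Figure D1:**
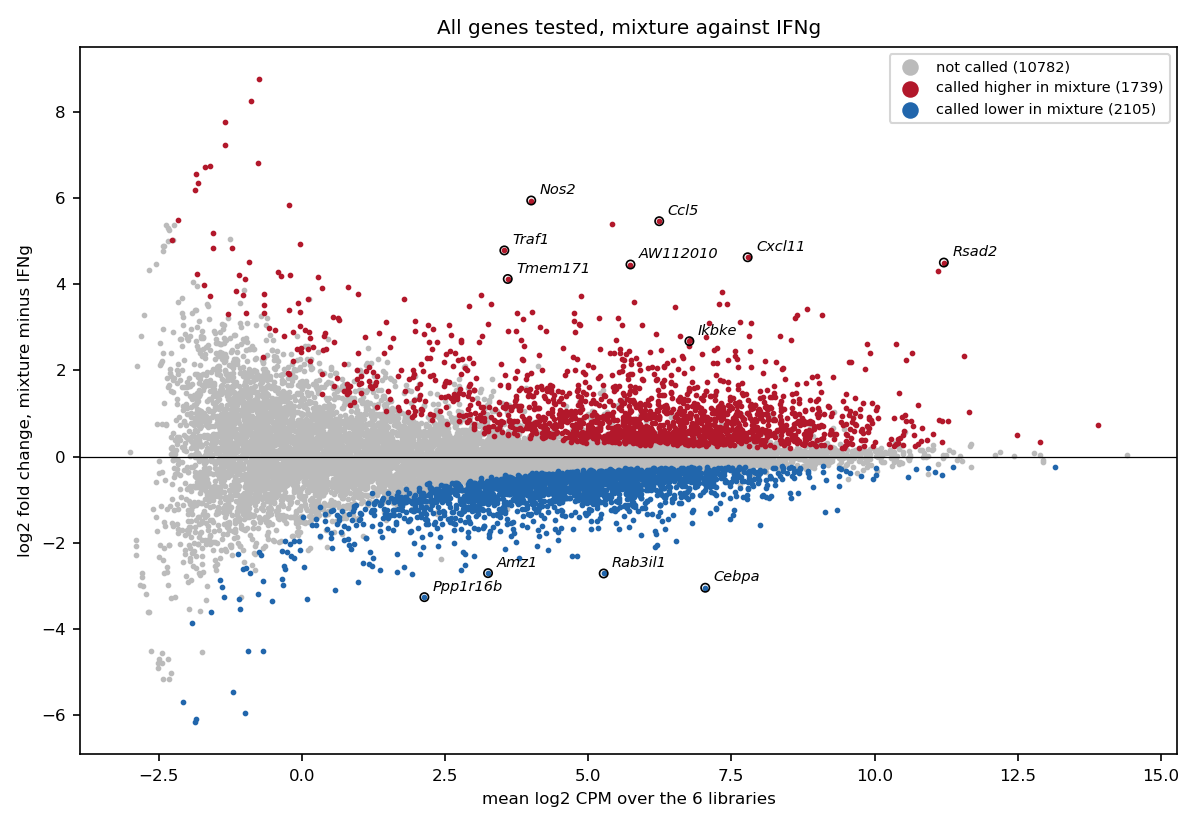
Log2 fold change of mixture over IFNg (vertical axis) against mean log2 CPM over the 6 libraries (horizontal axis) for the 14626 genes tested, with the 3844 called genes coloured by direction. The called genes lie on both sides of 0, with Nos2 at 5.94 highest among the labelled genes and Ppp1r16b at -3.26 lowest.

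Ikbke (ENSMUSG00000042349, mm10 chr1:131254343-131279606, minus strand) was higher in all 3 mixture libraries, and with it rose several partners of the TBK1 and IKK-epsilon complex and the sensors that feed it. Ikbke had 229, 304 and 301 CPM in mixture libraries, against 41.7, 44.4 and 42.8 CPM in IFNg libraries. The groups did not overlap and each was narrow beside the gap between them. The log2 fold change was 2.68 ± 0.18, adjusted p = 6.70e-08, and it ran from 2.45 to 2.83 over the alternatives. Among the single cytokines Ikbke had 162, 194 and 221 CPM with TNFa, 19.7, 28.1 and 16.6 CPM with IFNa and 13.1, 12.9 and 20.9 CPM with IL6, against 5.87, 6.64 and 9.67 CPM in unstimulated cells. TNFa was the single cytokine nearest to the mixture, and the mixture libraries all lay above the TNFa libraries. Against TNFa the mixture differed by 0.53 ± 0.17, adjusted p = 0.0227, and IFNg differed from unstimulated cells by 2.55 ± 0.20, adjusted p = 1.33e-07, in comparisons that called 37% and 23.7% of all genes tested.

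Of 25 tested genes of the TBK1 and IKK-epsilon axis and nucleic acid sensing, 11 rose and 2 fell, with a median log2 fold change of 0.60. With total counts as the only scaling 10 rose and 6 fell. Irf7, Ifih1 and Ddx58, which rose, are also counted among the antiviral genes below. Ikbkb, Chuk, Ikbkg, Tbkbp1, Irf3 and Traf3 were among the 12 members not called. Tank, a scaffold of TBK1 and IKK-epsilon, had 135, 149 and 140.2 CPM in mixture libraries, against 40.0, 50.5 and 40.6 CPM in IFNg libraries (1.70 ± 0.16, adjusted p = 7.98e-07). Tbk1 itself had 148, 197 and 135 CPM in mixture libraries, against 85.1, 104 and 80.0 CPM in IFNg libraries (0.83 ± 0.13, adjusted p = 0.000139). Neither gene's groups overlapped. Tlr3, the endosomal receptor of double-stranded RNA, had 383, 461 and 424 CPM in mixture libraries, against 79.5, 90.0 and 97.9 CPM in IFNg libraries (2.26 ± 0.39, adjusted p = 0.00129). Ifih1, which encodes the cytosolic RNA sensor MDA5, had 1598, 1816 and 1494 CPM in mixture libraries, against 324, 387 and 386 CPM in IFNg libraries (2.19 ± 0.42, adjusted p = 0.00254). Both sensors were higher in every mixture library than in any IFNg library. The 2 members that fell were Mavs, the mitochondrial adaptor of the RNA sensors (-0.41 ± 0.13, adjusted p = 0.0243), and Ticam2, an adaptor of TLR4 (-1.85 ± 0.57, adjusted p = 0.021). Neither call held in most settings: adjusted p was 0.00153 to 0.334 over its 17 alternatives for Mavs and 0.00545 to 0.185 over its 17 alternatives for Ticam2, and leaving out mixture replicate 1 ended both calls, with -0.32, adjusted p = 0.167 for Mavs and -1.80, adjusted p = 0.0682 for Ticam2. Leaving out mixture replicate 3 ended both as well, with -0.30, adjusted p = 0.2 for Mavs and -1.55, adjusted p = 0.109 for Ticam2. The call of Mavs was also lost without mixture replicate 2 (-0.38, adjusted p = 0.0927) or IFNg replicate 3 (-0.24, adjusted p = 0.272), and that of Ticam2 without IFNg replicate 1 (-1.43, adjusted p = 0.124). Tbk1, Tank, Mavs and Ticam2, and other genes given outside the largest changes of each list, were chosen after their values were seen.

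**Figure D2:**
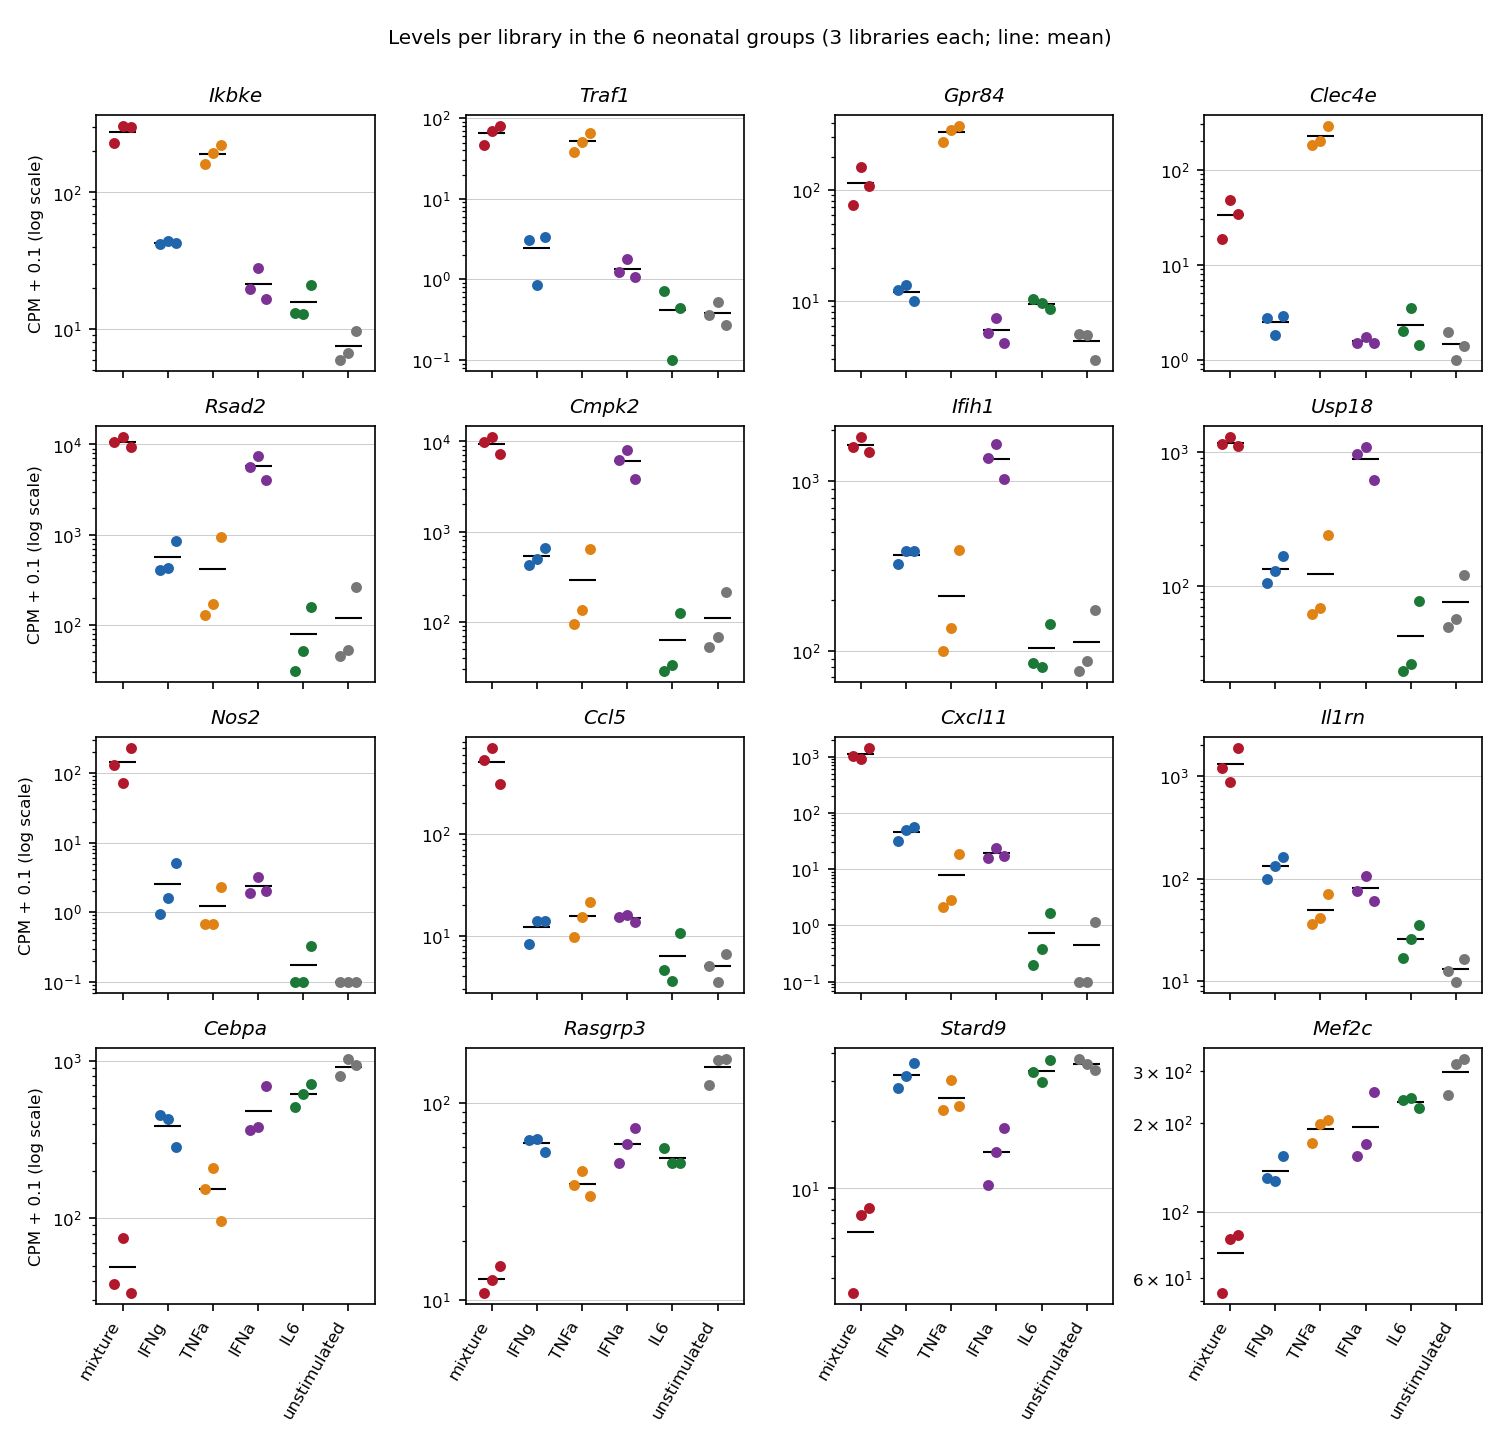
CPM + 0.1 (vertical log axis) of 16 genes in each neonatal library, with the mixture at the left, then IFNg, the other single cytokines and the unstimulated cells; each point is 1 library and each line a group mean. Ikbke lies at 229 to 304 CPM in the mixture libraries, above the IFNg and the TNFa libraries.

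Genes that hold NF-kappaB back, and its subunits, rose almost as a whole list: 12 of 13 tested were higher and none was lower, with a median log2 fold change of 1.22 against -0.02 over all genes. Nfkbie, which encodes the inhibitor IkappaB-epsilon, had 264, 339 and 375 CPM in mixture libraries, against 67.5, 88.9 and 62.4 CPM in IFNg libraries (2.16 ± 0.16, adjusted p = 1.17e-07). Nfkbia, which encodes IkappaB-alpha, had 468, 659 and 415 CPM in mixture libraries, against 184, 229 and 142 CPM in IFNg libraries (1.47 ± 0.14, adjusted p = 6.90e-07). Tnip3, a partner of the ubiquitin-editing enzyme A20, had 34.5, 58.0 and 142 CPM in mixture libraries, against 18.1, 20.6 and 30.3 CPM in IFNg libraries (1.66 ± 0.32, adjusted p = 0.00209). The groups did not overlap in these 3 genes, with mixture replicate 3 the highest for Tnip3. The subunit gene Nfkb2 had 298, 390.5 and 368 CPM in mixture libraries, against 143, 153 and 154 CPM in IFNg libraries (1.22 ± 0.11, adjusted p = 2.00e-07). Bcl3, an atypical nuclear member of the inhibitor family, was the exception at 0.21 ± 0.11, adjusted p = 0.174.

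Among 29 tested TNF and NF-kappaB response genes 22 rose and 1 fell, with a median of 1.37. Traf1, an adaptor of TNF receptor signalling, had 47.0, 70.4 and 79.1 CPM in mixture libraries, against 3.01, 0.755 and 3.23 CPM in IFNg libraries (4.78 ± 0.41, adjusted p = 1.82e-06). Clec4e, the C-type lectin Mincle, had 18.6, 47.8 and 34.3 CPM in mixture libraries, against 2.65, 1.72 and 2.78 CPM in IFNg libraries (3.75 ± 0.36, adjusted p = 6.09e-06). Marcksl1, an actin-binding protein gene, had 1185, 2268 and 1756 CPM in mixture libraries, against 189, 157 and 185 CPM in IFNg libraries (3.28 ± 0.22, adjusted p = 2.06e-07). In each of the 3 genes every mixture library lay far above every IFNg library. Gpr84, a receptor for medium-chain fatty acids, had 73.3, 163 and 109.7 CPM in mixture libraries, against 12.7, 13.8 and 9.96 CPM in IFNg libraries (3.21 ± 0.23, adjusted p = 1.93e-07). Il6 had 8.77, 4.37 and 1.88 CPM in mixture libraries, against 0, 0 and 0.194 CPM in IFNg libraries, that is 205 reads against 3, a ratio of 76.6 with a 95% counting interval of 25.9 to 375. The interval covers counting error only, and Il6 was at the edge of detection in the IFNg libraries. The fitted log2 fold change of 5.84 ± 1.18, adjusted p = 0.00143 rested on those few reads: it was 9.6, adjusted p = 0.000558 without IFNg replicate 3, which held all 3 reads (a fitted value with 0 IFNg reads and not a bound), 4.90, adjusted p = 0.0126 without IFNg replicate 1 and 5.19, adjusted p = 0.0115 without IFNg replicate 2. The call was lost without replicate 1 of every neonatal group (4.71, adjusted p = 0.0691), with adjusted p of 1.22e-06 to 0.0691 over its 17 alternatives. The member that fell was Plau, which encodes the urokinase plasminogen activator (-1.23 ± 0.16, adjusted p = 3.32e-05). Csf1, the growth factor of microglia, had 189, 88.6 and 93.3 CPM in mixture libraries, against 94.9, 41.6 and 44.0 CPM in IFNg libraries (1.06 ± 0.25, adjusted p = 0.00705). Its groups overlapped, and without the replicate block it was not called (1.04, adjusted p = 0.271; adjusted p was 1.84e-05 to 0.271 over its 17 alternatives).

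The antiviral genes that IFN-alpha induces were the other large block: 28 of 34 tested rose, none fell, and the median was 1.13. Together they took 4.22 to 4.86% of all reads in mixture libraries, against 1.16 to 1.78% in IFNg libraries. The share was higher in replicate 3 than in replicates 1 and 2 of the IFNg, TNFa, IL6 and unstimulated groups, for instance 1.78% against 1.16 and 1.18% in IFNg and 1.12% against 0.466 and 0.491% in unstimulated cells, and the reverse held in mixture and IFNa libraries. Rsad2, which encodes the antiviral enzyme viperin, had 10778, 11961 and 9294 CPM in mixture libraries, against 404, 424 and 863 CPM in IFNg libraries (4.50 ± 0.73, adjusted p = 0.00103). Cmpk2, its neighbour on the chromosome and a nucleotide kinase, had 9819, 11082 and 7289.5 CPM in mixture libraries, against 429, 496 and 664 CPM in IFNg libraries (4.30 ± 0.73, adjusted p = 0.00134). For both genes the lowest mixture library was far above the highest IFNg library. Ifit3b, an RNA-binding antiviral protein gene, had 447, 774 and 550.0 CPM in mixture libraries, against 31.0, 32.9 and 91.5 CPM in IFNg libraries (3.82 ± 0.54, adjusted p = 0.000404). Ifit1bl1, a relative of Ifit1, had 179, 409 and 241 CPM in mixture libraries, against 4.52, 3.30 and 21.4 CPM in IFNg libraries (5.41 ± 0.93, adjusted p = 0.00149). IFNg replicate 3 was the highest of its group for both, and the fold change of Ifit1bl1 was 4.72, adjusted p = 0.00433 without mixture replicate 2 and 6.14, adjusted p = 0.000754 without mixture replicate 3, with adjusted p of 1.08e-11 to 0.0723 over its 17 alternatives. Ifit3b and Ifit3 are near-identical copies, so the split of reads between them is uncertain. Reads that Ifit1bl1 may share with its relatives were not measured. Usp18, the protease that removes ISG15 and dampens the IFN-alpha receptor, had 1136, 1275 and 1094 CPM in mixture libraries, against 104, 128 and 167 CPM in IFNg libraries (3.21 ± 0.50, adjusted p = 0.000759). Mx1, an antiviral GTPase, had 893, 1015 and 928 CPM in mixture libraries, against 111, 117 and 246 CPM in IFNg libraries (2.69 ± 0.35, adjusted p = 0.000168). Ifit1, whose product binds foreign RNA caps, changed by 3.41 ± 0.51, adjusted p = 0.000568, and Isg15, the ubiquitin-like modifier, by 2.03 ± 0.32, adjusted p = 0.000731. Usp18 and Mx1 showed no overlap between the groups. Stat2, which carries the IFN-alpha signal, had 765, 993 and 1133 CPM in mixture libraries, against 431, 457 and 625 CPM in IFNg libraries (0.94 ± 0.18, adjusted p = 0.00143), and without the block it was not called (0.93, adjusted p = 0.14; adjusted p was 7.48e-08 to 0.14 over its 17 alternatives). The number of called members fell to 11 when replicate 2 of every neonatal group was left out, an alternative added after seeing the data.

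Promoter sequences are shown for genes that carry the rises above, so that the letters near their starts can be seen beside the values. They are RefSeq promoters on GRCm38.p6, 250 bases before to 50 after each start, read 5′ to 3′ on the gene's strand. The interferon-stimulated response element core was searched as 2 copies of GAAA with any 2 bases between them, the gamma-activated site as TTCNNNGAA and the NF-kappaB site by the kappaB consensus, each on both strands. In the Rsad2 promoter the capitals mark the match to the response element core, which reads GAAAATGAAA on the opposite strand, 120 to 111 bases before the start. The Traf1 and Ikbke windows held no match to the 3 motifs and are printed in lower case throughout.
Rsad2 promoter, GRCm38.p6 chr12:26456403-26456702, minus strand: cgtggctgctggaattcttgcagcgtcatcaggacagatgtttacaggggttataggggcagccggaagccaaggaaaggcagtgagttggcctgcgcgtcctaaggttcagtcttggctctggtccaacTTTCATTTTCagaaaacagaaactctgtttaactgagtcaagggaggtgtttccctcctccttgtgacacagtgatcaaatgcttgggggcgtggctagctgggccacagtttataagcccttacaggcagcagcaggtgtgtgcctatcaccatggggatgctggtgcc
Traf1 promoter, GRCm38.p6 chr2:34961723-34962022, minus strand: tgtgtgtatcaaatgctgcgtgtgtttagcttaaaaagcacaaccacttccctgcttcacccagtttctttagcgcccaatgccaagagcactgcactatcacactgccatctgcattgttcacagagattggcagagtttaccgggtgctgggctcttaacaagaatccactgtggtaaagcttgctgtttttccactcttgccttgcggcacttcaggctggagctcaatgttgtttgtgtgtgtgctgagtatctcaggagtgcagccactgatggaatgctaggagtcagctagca
Ikbke promoter, GRCm38.p6 chr1:131279514-131279813, minus strand: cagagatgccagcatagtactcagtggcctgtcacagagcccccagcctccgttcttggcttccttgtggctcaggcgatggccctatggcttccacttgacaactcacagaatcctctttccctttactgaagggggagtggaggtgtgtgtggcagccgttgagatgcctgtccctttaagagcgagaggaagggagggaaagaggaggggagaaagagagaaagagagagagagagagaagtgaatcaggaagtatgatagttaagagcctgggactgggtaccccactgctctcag

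The response element core was in 8.58% of 1376 genes that rose and had a promoter entry, in 2.28% of 1668 that fell, in 4.03% of 10782 tested and in 3.44% of all 32851 promoters. Here and below a gene was counted if any of its promoter entries held a match, while all promoters were counted entry by entry. Shares of genes and of all promoters thus differ in unit. Of the antiviral genes that rose, 12 of 21 with an entry held the core (57.1%), against 13 of 25 of those tested (52%). Of the interferon-inducible GTPases tested, of which 1 rose, 9 of 10 held it. Sites of antiviral genes are shown in 30 bases with the core in capitals, and that of Gbp3 for the GTPases. The Isg15 and Gbp3 stretches also hold overlapping matches in their flanking letters, and 1 match is in capitals for each.
Rsad2, chr12:26456553-26456582, plus strand of the chromosome: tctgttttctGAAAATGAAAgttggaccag
Ifit3b, chr19:34607759-34607788, minus strand of the chromosome: accagaagagGAAAGTGAAActtaccactg
Ifit3b, chr19:34607793-34607822, minus strand of the chromosome: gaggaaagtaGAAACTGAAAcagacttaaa
Ifit1, chr19:34640775-34640804, minus strand of the chromosome: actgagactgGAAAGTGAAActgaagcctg
Ifit1, chr19:34640794-34640823, minus strand of the chromosome: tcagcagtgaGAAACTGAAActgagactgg
Isg15, chr4:156200871-156200900, minus strand of the chromosome: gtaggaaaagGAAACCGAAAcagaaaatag
Gbp3, chr3:142559989-142560018, minus strand of the chromosome: ctgggaaataGAAACTGAAActgtgtcctg

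The kappaB consensus was in 207 of the 1376 genes that rose and had a promoter entry (15%) and in 203 of the 1668 that fell. Its share was 12.7% of the genes tested and 8.46% of all promoters. The consensus was in 7 of 9 NF-kappaB feedback and subunit genes that rose and had an entry (77.8%), against 8 of 10 tested (80%). It was in 5 of 20 of the TNF and NF-kappaB response genes that rose (25%), against 6 of 24 tested (25%). In neither list was the share higher among the genes that rose. Sites of the feedback genes and of Il6 are shown with the matching letters in capitals. Matches in Tnfaip3, which encodes A20, and in Nfkb2 overlapped one another on the 2 strands, other matches lay elsewhere in their windows, and 1 match is shown for each gene.
Nfkbie, chr17:45555584-45555613, plus strand of the chromosome: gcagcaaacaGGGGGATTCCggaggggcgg
Nfkbia, chr12:55492657-55492686, plus strand of the chromosome: gtcaggcgcgGGGAATTTCCaagccagtca
Tnfaip3, chr10:19015403-19015432, plus strand of the chromosome: ttgccaacagGGGGATTTCCgatggaaatt
Nfkb2, chr19:46304688-46304717, plus strand of the chromosome: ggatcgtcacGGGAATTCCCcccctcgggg
Il6, chr5:30013060-30013089, plus strand of the chromosome: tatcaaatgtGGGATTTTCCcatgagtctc

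The gamma-activated site was at 8.36% in genes that rose, 8.57% in genes that fell, 8.11% in those tested and 8.3% in all promoters. A match is a description of letters and was not tested as a binding site.

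Chemokine genes that attract T cells and monocytes were higher with the mixture: 10 of 15 tested CC and other chemokine genes rose, none fell and the median was 1.64. Ccl5, a chemokine for T cells, had 532, 689 and 309 CPM in mixture libraries, against 8.19, 14.01 and 13.9 CPM in IFNg libraries (5.46 ± 0.45, adjusted p = 6.44e-06). Ccl3, a chemokine for monocytes and other leukocytes, had 495, 896 and 338 CPM in mixture libraries, against 47.8, 59.1 and 34.7 CPM in IFNg libraries (3.55 ± 0.25, adjusted p = 4.74e-07), with the reads it shares with its close relative Ccl4 uncertain. Ccrl2, a receptor that binds chemerin without signalling, had 679, 572 and 535 CPM in mixture libraries, against 62.5, 85.4 and 58.2 CPM in IFNg libraries (3.13 ± 0.47, adjusted p = 0.000558). The groups of these genes did not overlap. All 3 ligands of CXCR3, a receptor of activated T cells, were called, with a median of 2.24. Cxcl11 had 1020.0, 902 and 1398 CPM in mixture libraries, against 31.9, 49.4 and 56.2 CPM in IFNg libraries (4.62 ± 0.60, adjusted p = 0.000215). Cxcl10 had 3418, 3535 and 2795 CPM in mixture libraries, against 589.7, 886 and 629.8 CPM in IFNg libraries (2.24 ± 0.69, adjusted p = 0.0355). Cxcl9 had 2376, 657 and 1977 CPM in mixture libraries, against 451, 575 and 233 CPM in IFNg libraries (2.19 ± 0.66, adjusted p = 0.0334). The groups did not overlap for any of the 3, although mixture replicate 2 of Cxcl9 was close to IFNg replicate 2. The Cxcl10 call was lost without mixture replicate 1 (2.05, adjusted p = 0.098), without mixture replicate 2 (2.30, adjusted p = 0.0783), and without IFNg replicate 1 (2.27, adjusted p = 0.111), 2 (2.46, adjusted p = 0.0815) or 3 (2.07, adjusted p = 0.126). The Cxcl9 call was lost without mixture replicate 1 (2.16, adjusted p = 0.0963), mixture replicate 3 (1.46, adjusted p = 0.176), and IFNg replicate 1 (2.13, adjusted p = 0.119), 2 (2.35, adjusted p = 0.0721) or 3 (2.07, adjusted p = 0.132), and without the block (1.99, adjusted p = 0.0671). Without mixture replicate 2 the value for Cxcl9 was 2.94, adjusted p = 0.00258, and adjusted p was 0.00258 to 0.309 over its 17 alternatives for Cxcl9 and 5.38e-06 to 0.259 over its 17 alternatives for Cxcl10. Cxcl10 and Cxcl11 overlap Art3 on the opposite strand, and the strand setting of the counting is not given in the sources used here.

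The chemokines that attract neutrophils stayed at low levels, and 1 of the 4 tested was called. Cxcl2 had 1.93, 13.27 and 2.57 CPM in mixture libraries, against 0.964, 0.137 and 0.517 CPM in IFNg libraries (3.22 ± 0.70, adjusted p = 0.00361). Mixture replicate 2 was the highest, and the value moved to 2.38, adjusted p = 0.0124 without it, to 3.97, adjusted p = 6.23e-05 without mixture replicate 1 and to 2.43, adjusted p = 0.0182 without IFNg replicate 2, and adjusted p was 6.23e-05 to 0.0995 over its 17 alternatives. Cxcl1 had 4.16, 1.39 and 0.347 CPM in mixture libraries, against 0.301, 0.0687 and 0.582 CPM in IFNg libraries (2.22 ± 0.99, adjusted p = 0.115). Without IFNg replicate 3 Cxcl1 was called (3.55, adjusted p = 0.0328), without mixture replicates 1 and 3 its value was 1.53, adjusted p = 0.379 and 2.84, adjusted p = 0.0654, and adjusted p was 0.0166 to 0.501 over its 16 alternatives. Cxcl3 and Cxcl5 had fewer than 2 CPM in every one of the 6 libraries and neither was called, with adjusted p of 0.124 to 0.662 over its 16 alternatives for Cxcl3 and 0.0661 to 0.898 over its 14 alternatives for Cxcl5. Their fold changes turned on single libraries, that of Cxcl5 being 6.18, adjusted p = 0.0818 without IFNg replicate 3, which held its only IFNg reads, and 0.68, adjusted p = 0.825 without IFNg replicate 1, and that of Cxcl3 2.48, adjusted p = 0.124 without mixture replicate 2 and 1.00, adjusted p = 0.662 without mixture replicate 3. All 4 had a lower mean with the mixture than with TNFa alone, where Cxcl2 had 41.6, 51.0 and 14.4 CPM and Cxcl1 had 11.0, 9.08 and 4.01 CPM.

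Of 8 tested genes listed under nitric oxide, itaconate, arginine and tryptophan enzymes 5 rose and none fell, with a median of 1.20. The 5 were Nos2, Acod1, Gch1, Arg2 and Cybb, while Ass1, Slc7a2 and Kynu were not called. Nos2 (ENSMUSG00000020826, mm10 chr11:78920787-78960254, plus strand), the inducible nitric oxide synthase, changed the most of all genes named by size. Nos2 had 131, 70.8 and 226 CPM in mixture libraries, against 0.843, 1.51 and 5.04 CPM in IFNg libraries. No mixture library was near an IFNg library, and in IFNg cells Nos2 was itself rare. The log2 fold change was 5.94 ± 0.48, adjusted p = 8.52e-06, and it was 6.53, adjusted p = 7.04e-05 without IFNg replicate 3, the highest of its group, with adjusted p of 1.66e-19 to 0.00228 over its 17 alternatives. Unstimulated cells had 0 Nos2 reads, so the mixture was at least 2390-fold and IFNg at least 40.6-fold above a floor of 3 reads over the group. Acod1, which makes itaconate, had 3475, 3484 and 4246 CPM in mixture libraries, against 604, 749 and 759 CPM in IFNg libraries (2.41 ± 0.47, adjusted p = 0.00316). Gch1, the entry enzyme for the nitric oxide synthase cofactor, had 380.1, 471 and 366 CPM in mixture libraries, against 85.4, 108 and 94.4 CPM in IFNg libraries (2.09 ± 0.21, adjusted p = 6.30e-06). Both had no overlap between the groups, and Acod1 was not called without replicate 1 of every neonatal group (2.38, adjusted p = 0.103).

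Interleukin and inflammasome genes rose in 13 of 19 tested with none lower and a median of 1.91. Il27, a subunit of the cytokine IL-27, had 148, 103 and 81.7 CPM in mixture libraries, against 10.5, 12.3 and 3.81 CPM in IFNg libraries (3.72 ± 0.45, adjusted p = 7.52e-05). Il1rn, the natural antagonist of the IL-1 receptor, had 1198, 869 and 1851 CPM in mixture libraries, against 98.8, 134 and 163 CPM in IFNg libraries (3.30 ± 0.31, adjusted p = 1.20e-05). Il15, a growth factor for natural killer cells, had 155, 156 and 107 CPM in mixture libraries, against 14.9, 19.4 and 16.7 CPM in IFNg libraries (3.05 ± 0.45, adjusted p = 0.00039), and its receptor subunit Il15ra rose as well (2.89 ± 0.46, adjusted p = 0.000577). These groups did not overlap, and agonist and antagonist genes of the IL-1 system rose in the same libraries. Il1b had 19.3, 52.7 and 10.6 CPM in mixture libraries, against 4.46, 4.40 and 1.94 CPM in IFNg libraries (2.79 ± 0.27, adjusted p = 1.39e-06). Il27 overlaps Apobr on the opposite strand.

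Costimulatory and checkpoint ligands rose in 7 of 13 tested with none lower and a median of 1.25. Cd40, the receptor through which T cells license antigen-presenting cells, had 662, 504 and 616 CPM in mixture libraries, against 81.1, 100.4 and 77.4 CPM in IFNg libraries (2.79 ± 0.33, adjusted p = 6.40e-05). Cd69, an early activation marker, had 774, 609.6 and 400.3 CPM in mixture libraries, against 44.1, 56.5 and 53.5 CPM in IFNg libraries (3.53 ± 0.58, adjusted p = 0.0011). Tnfsf10, the death ligand TRAIL, had 573, 462 and 547 CPM in mixture libraries, against 84.5, 104 and 107 CPM in IFNg libraries (2.45 ± 0.64, adjusted p = 0.0155). For all 3 the mixture libraries lay above the IFNg libraries. The Tnfsf10 call was lost without mixture replicate 1 (2.15, adjusted p = 0.055), IFNg replicate 1 (2.58, adjusted p = 0.0538) or IFNg replicate 3 (2.28, adjusted p = 0.0694), and adjusted p was 6.28e-06 to 0.157 over its 17 alternatives. Tnfsf4, which encodes OX40 ligand, had 97 reads in the mixture libraries and 0 in the IFNg libraries, at least 36.3-fold higher against a floor of 3 reads over the group. With Tnfsf4 at that bound the list median did not move.

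**Figure D3:**
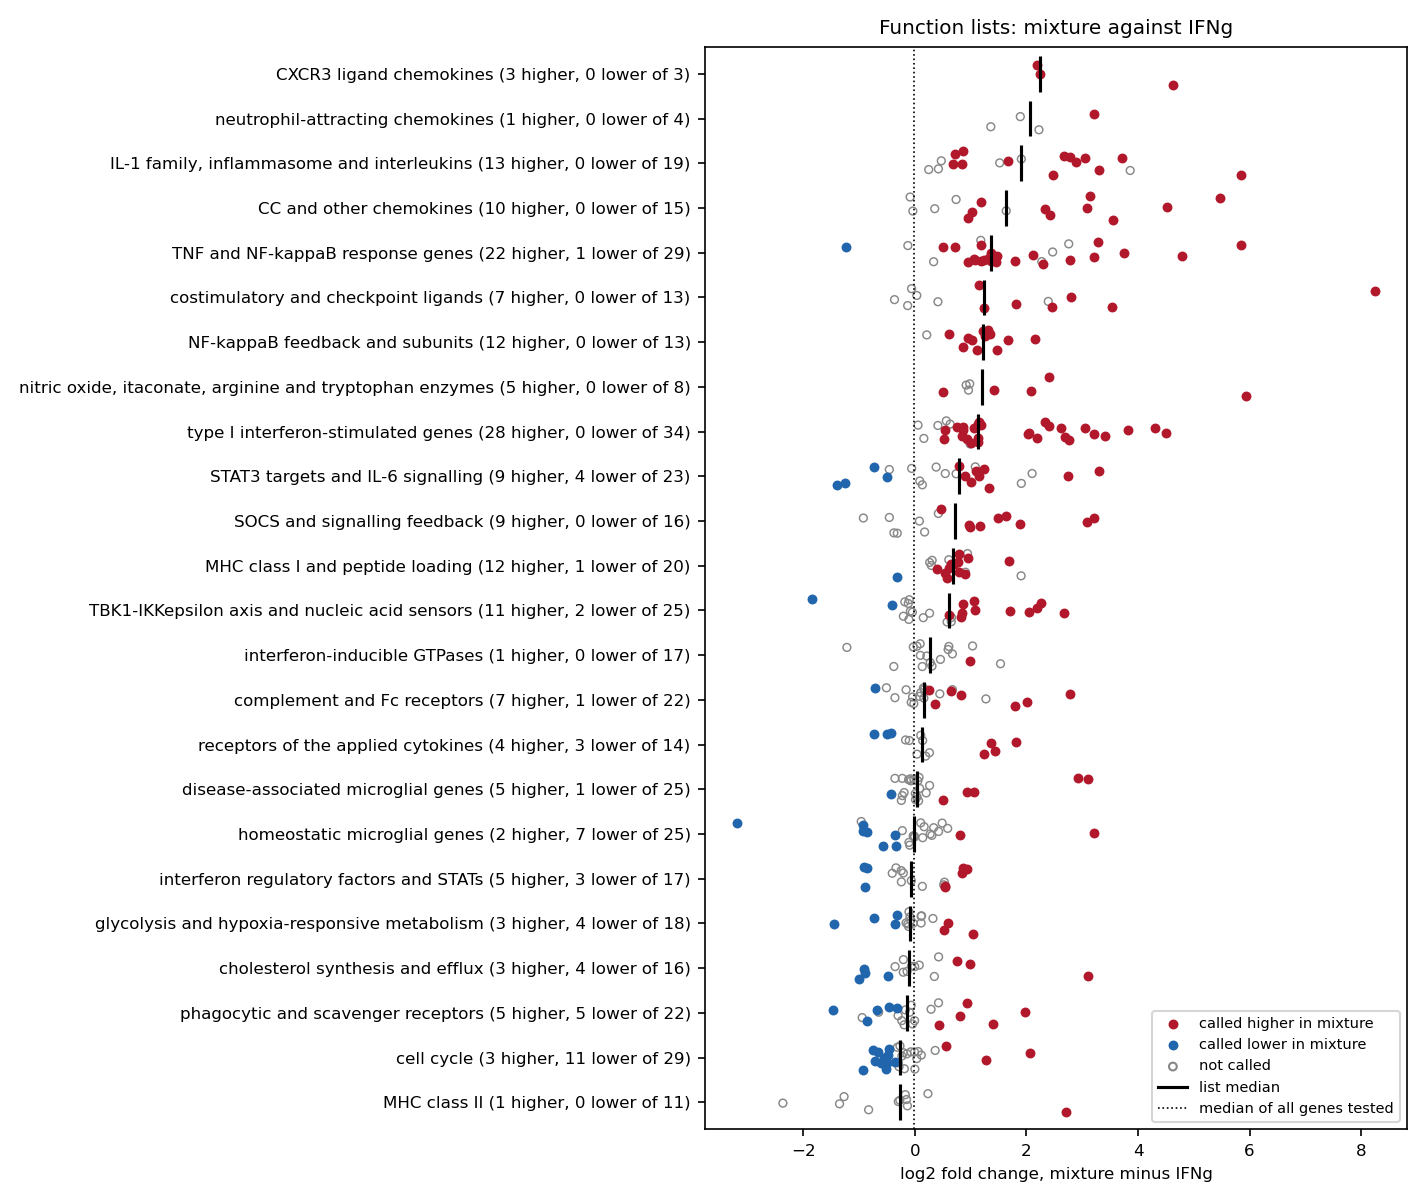
Log2 fold change of mixture over IFNg for each tested member of the 24 function lists (points, 1 gene each; the bar is the list median) on a horizontal axis in log2 units. The NF-kappaB feedback list lies to the right of 0 with a median of 1.22 and the MHC class II list to the left with a median of -0.27; the point at 8.25 is Tnfsf4, a fitted value with 0 IFNg reads and not a bound.

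Few of the GTPase genes that IFN-gamma itself strongly induces were called. Of 17 tested interferon-inducible GTPases, which attack the vacuoles of intracellular pathogens, 1 rose and none fell, with a median of 0.28. The called gene was Gbp3, with 794, 694 and 882 CPM in mixture libraries, against 369, 412 and 406 CPM in IFNg libraries (0.99 ± 0.24, adjusted p = 0.00921). Its call was lost without replicate 1 of every neonatal group (0.96, adjusted p = 0.154). The summed GTPase level was 12364, 8048 and 13684 CPM in mixture libraries, against 8745, 10098 and 8647 CPM in IFNg libraries, and mixture replicate 2 was below all IFNg libraries. Without mixture replicate 2, 2 of the 17 were called higher and the median was 0.63, against 0.06 over all genes. With limma-voom 3 rose and 1 fell, and in a fit of the 6 libraries alone 4 rose and 1 fell. The near-identical Tgtp1 and Tgtp2, and Gbp6 and Gbp10, share reads.

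Of 20 MHC class I and peptide-loading genes 12 rose and 1 fell, with a median of 0.68, and 3 rose and none fell without the replicate block. Psmb10, an immunoproteasome subunit, had 539, 659 and 542 CPM in mixture libraries, against 268, 333 and 336 CPM in IFNg libraries (0.90 ± 0.15, adjusted p = 0.000271). H2-T22, a nonclassical class I gene, had 564, 704 and 906 CPM in mixture libraries, against 149, 193 and 390.1 CPM in IFNg libraries (1.69 ± 0.21, adjusted p = 5.81e-05). H2-Q4 had 217, 235 and 374 CPM in mixture libraries, against 118, 112 and 200.1 CPM in IFNg libraries (0.95 ± 0.15, adjusted p = 0.000189). Without the block neither H2-T22 (1.57, adjusted p = 0.0784; 5.76e-18 to 0.0784 over its 17 alternatives in adjusted p) nor H2-Q4 (0.94, adjusted p = 0.16; 1.22e-14 to 0.16 over its 17 alternatives) was called, and both belong to near-identical families and overlap other genes on the opposite strand. The member that fell was Erap1, the peptide-trimming enzyme (-0.32 ± 0.10, adjusted p = 0.0222), which was not called without any 1 of the 3 mixture libraries (-0.25, adjusted p = 0.128 without replicate 1, -0.18, adjusted p = 0.288 without replicate 2 and -0.27, adjusted p = 0.0912 without replicate 3) or without IFNg replicate 1 (-0.28, adjusted p = 0.103) or 2 (-0.29, adjusted p = 0.0933), with adjusted p of 0.000103 to 0.342 over its 17 alternatives. In MHC class II 1 of 11 tested genes was called: H2-Oa, a subunit of a modulator of peptide loading, with 16.5, 21.2 and 15.0 CPM in mixture libraries, against 1.81, 3.98 and 2.33 CPM in IFNg libraries (2.7 ± 0.52, adjusted p = 0.000863). The class II median was -0.27, and it was -0.15 without mixture replicate 2, where 2 rose and 0 fell; 2 rose and 0 fell without mixture replicate 1. With total counts as the only scaling 1 rose and 3 fell. Ciita, the master regulator of class II genes, had 5.65, 0.146 and 5.42 CPM in mixture libraries, against 17.9, 15.6 and 10.21 CPM in IFNg libraries (-2.36 ± 0.93, adjusted p = 0.0861), with mixture replicate 2 nearly at 0. Ciita did not pass the test, and without mixture replicate 2 it was -1.33, adjusted p = 0.229, without mixture replicate 3 -3.22, adjusted p = 0.059 and without IFNg replicate 2 -1.55, adjusted p = 0.266, with adjusted p of 0.00776 to 0.298 over its 17 alternatives.

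Among 17 tested interferon regulatory factors and STATs 5 rose and 3 fell, with a median of -0.06. The median was 0.19 without mixture replicate 2, 0.05 without mixture replicate 3, 0.09 without IFNg replicate 1 and 0.01 with RLE scaling, so its sign moved with these settings. Without the block 2 rose and 2 fell, 5 rose and 1 fell without IFNg replicate 1, 3 rose and 1 fell without IFNg replicate 2, and with total counts as the only scaling 3 rose and 6 fell. Stat5a, a mediator of growth factor signals, had 16.2, 16.5 and 16.6 CPM in mixture libraries, against 31.5, 38.6 and 22.9 CPM in IFNg libraries (-0.89 ± 0.15, adjusted p = 0.000179), and it overlaps Stat3 on the opposite strand. Batf3, a partner of AP-1 factors in dendritic cells, had 12.3, 9.04 and 8.61 CPM in mixture libraries, against 23.9, 25.6 and 11.4 CPM in IFNg libraries (-0.90 ± 0.28, adjusted p = 0.0227). Its groups overlapped, and the call was lost without mixture replicate 1 (-0.85, adjusted p = 0.0921) or 2 (-0.50, adjusted p = 0.247), without IFNg replicate 1 (-0.83, adjusted p = 0.0994), 2 (-0.94, adjusted p = 0.058) or 3 (-0.89, adjusted p = 0.0705), and without the block (-1.02, adjusted p = 0.223), with adjusted p of 0.000796 to 0.247 over its 17 alternatives. Irf1 (-0.34 ± 0.36, adjusted p = 0.567), Irf8 (-0.40 ± 0.39, adjusted p = 0.522) and Socs1 (-0.31 ± 0.60, adjusted p = 0.766) did not pass the test, and their fold changes turned positive without mixture replicate 2, at 0.19, adjusted p = 0.573 for Irf1, 0.18, adjusted p = 0.421 for Irf8 and 0.38, adjusted p = 0.659 for Socs1.

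Genes listed for STAT3 and IL-6 signalling were mixed, and the share of IL-6 in their changes cannot be told apart here. Of 23 STAT3 targets and IL-6 signalling genes 9 rose and 4 fell, with a median of 0.80, and 2 of the 4 were lower without the block. Junb, an AP-1 subunit, had 748, 1012 and 736 CPM in mixture libraries, against 373, 333 and 277 CPM in IFNg libraries (1.33 ± 0.11, adjusted p = 1.91e-07). Myc, the growth-promoting factor, had 20.1, 16.0 and 16.9 CPM in mixture libraries, against 50.001, 51.3 and 39.2 CPM in IFNg libraries (-1.40 ± 0.17, adjusted p = 6.74e-06). Junb and Myc thus moved in opposite directions, each with no overlap between the groups. Junb overlaps Prdx2 on the opposite strand. Both receptor genes of IL-6 were among those that fell, Il6st, which encodes gp130 (-0.74 ± 0.15, adjusted p = 0.00181), and Il6ra, its ligand-binding partner (-0.50 ± 0.12, adjusted p = 0.00391). Il4ra, the list member that encodes a receptor chain for IL-4 and IL-13, fell too (-1.25 ± 0.15, adjusted p = 1.22e-05). Without the block Il6st (-0.72, adjusted p = 0.256; 4.77e-05 to 0.256 over its 17 alternatives in adjusted p) and Il6ra (-0.48, adjusted p = 0.335; 0.000107 to 0.335 over its 17 alternatives) were not called, and Il6ra was not called without mixture replicate 1 (-0.35, adjusted p = 0.0778). Socs3, the STAT3-induced inhibitor of gp130, was not called (-0.46 ± 0.45, adjusted p = 0.527).

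Signalling feedback genes rose in 9 of 16 tested with none lower and a median of 0.72. Dusp2, a phosphatase of MAP kinases, had 93.5, 88.5 and 72.7 CPM in mixture libraries, against 11.0, 14.6 and 5.69 CPM in IFNg libraries (3.08 ± 0.32, adjusted p = 9.51e-06). Dusp1, of the same family, had 76.9, 121 and 106 CPM in mixture libraries, against 25.6, 22.4 and 33.4 CPM in IFNg libraries (1.89 ± 0.13, adjusted p = 2.93e-08). Neither gene's groups overlapped. Of 14 receptors and proximal signalling genes of the applied cytokines 4 rose and 3 fell, with a median of 0.12. Without the block 4 rose and 0 fell, 6 rose and 1 fell without mixture replicate 1, and with total counts as the only scaling 4 rose and 5 fell with a median of -0.11. Tnfrsf1b, the second TNF receptor, had 375, 1198 and 534 CPM in mixture libraries, against 169, 168 and 243 CPM in IFNg libraries (1.81 ± 0.30, adjusted p = 0.000855), with mixture replicate 2 the highest, and a log2 fold change of 1.30 without it, which was still called. Jak2, the kinase of the IFN-gamma receptor, had 242, 249 and 246 CPM in mixture libraries, against 83.3, 94.0 and 95.2 CPM in IFNg libraries (1.44 ± 0.14, adjusted p = 7.46e-07). Tyk2, the kinase of the IFN-alpha receptor, had 210.0, 309 and 356 CPM in mixture libraries, against 92.8, 113 and 128 CPM in IFNg libraries (1.37 ± 0.09, adjusted p = 1.45e-08). Both kinase genes were higher in every mixture library. Ifngr1, the ligand-binding chain for IFN-gamma, was called lower (-0.44 ± 0.15, adjusted p = 0.0346). That call was lost in 11 of 17 alternatives, with adjusted p from 0.0031 to 0.346; among them it was lost without mixture replicate 1 (-0.30, adjusted p = 0.227) or 3 (-0.23, adjusted p = 0.343) and without IFNg replicate 1 (-0.37, adjusted p = 0.148), 2 (-0.49, adjusted p = 0.0512) or 3 (-0.40, adjusted p = 0.107).

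The genes with the largest falls included a myeloid transcription factor and regulators of small GTPases. Cebpa (ENSMUSG00000034957, mm10 chr7:35119293-35121928, plus strand), a transcription factor of myeloid development, had 38.2, 74.3 and 33.5 CPM in mixture libraries, against 453, 427 and 285 CPM in IFNg libraries (-3.04 ± 0.38, adjusted p = 0.000146), and it overlaps the predicted gene Gm45091 on the opposite strand. Rasgrp3, an activator of Ras, had 10.8, 12.5 and 14.7 CPM in mixture libraries, against 64.6, 65.5 and 56.4 CPM in IFNg libraries (-2.30 ± 0.17, adjusted p = 3.77e-08). Rab3il1, an exchange factor for Rab GTPases, had 6.31, 28.2 and 16.0 CPM in mixture libraries, against 106, 118 and 89.4 CPM in IFNg libraries (-2.71 ± 0.45, adjusted p = 0.000997). The 3 genes had no overlap, and Rasgrp3 was the tightest within groups. Egr2, an immediate early transcription factor, had 3.86, 1.31 and 3.33 CPM in mixture libraries, against 21.7, 31.2 and 7.37 CPM in IFNg libraries (-2.63 ± 0.52, adjusted p = 0.00166), and -1.99, adjusted p = 0.0056 without mixture replicate 2, with adjusted p of 1.60e-06 to 0.073 over its 17 alternatives. Usp2, a ubiquitin protease gene, had 4.16, 3.28 and 3.33 CPM in mixture libraries, against 23.3, 23.6 and 9.18 CPM in IFNg libraries (-2.30 ± 0.26, adjusted p = 4.57e-06). Ppp1r16b, a regulator of protein phosphatase 1, had 3.34, 0.365 and 1.74 CPM in mixture libraries, against 20.4, 21.2 and 5.17 CPM in IFNg libraries (-3.26 ± 0.98, adjusted p = 0.0248). The Ppp1r16b call was lost without mixture replicate 1 (-2.91, adjusted p = 0.122), mixture replicate 2 (-2.52, adjusted p = 0.133), IFNg replicate 2 (-2.25, adjusted p = 0.116) or the block (-3.10, adjusted p = 0.191), and the value was -4.15, adjusted p = 0.016 without mixture replicate 3, with adjusted p of 0.000232 to 0.191 over its 17 alternatives. The metalloprotease gene Amz1 (-2.7 ± 0.31, adjusted p = 8.68e-06), the receptor gene Gpr146 (-2.31 ± 0.29, adjusted p = 4.82e-05), the kinesin gene Stard9 (-2.35 ± 0.22, adjusted p = 6.75e-07) and the zinc finger gene Zfp395 (-2.50 ± 0.39, adjusted p = 0.000323) also fell, and the first 3 of these overlap other genes on the opposite strand. Egr2 had 12.3, 15.1 and 8.72 CPM with TNFa, 1.30, 2.00 and 1.61 CPM with IFNa and 2.43, 3.29 and 0.403 CPM with IL6, against 7.29, 6.46 and 6.24 CPM in unstimulated cells. Ppp1r16b had 0.951, 0.0644 and 0.214 CPM with TNFa, 1.72, 1.26 and 0.220 CPM with IFNa and 2.07, 0 and 0 CPM with IL6, against 1.36, 0 and 0.281 CPM in unstimulated cells. For Ppp1r16b the IFNg libraries thus stood above all other neonatal libraries, and for Egr2 the IFNg group had the highest mean. Of the 10 largest rises 3 belonged to no list, Ifit1bl1 above, AW112010 (4.46 ± 0.28, adjusted p = 1.12e-07) and Tmem171 (4.12 ± 0.49, adjusted p = 3.73e-05), the other two with no role given here.

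**Figure D4:**
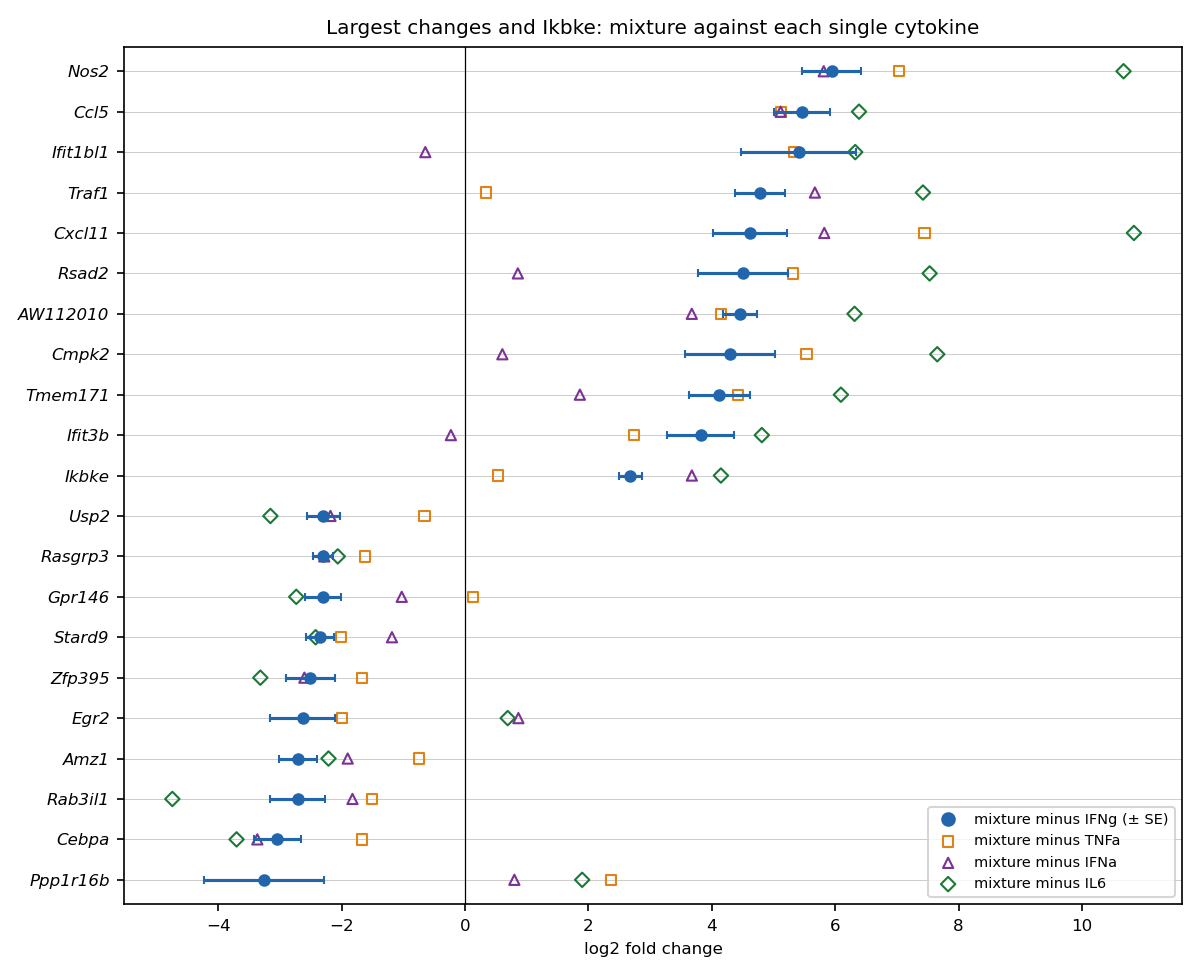
Log2 fold changes ± SE (horizontal axis) of Ikbke and of the 10 genes higher and the 10 lower with the largest change, for mixture minus IFNg as filled points, and the log2 fold changes of mixture minus TNFa, IFNa and IL6, which share the mixture libraries, as open symbols without error. Nos2 (5.94) is highest and Ppp1r16b (-3.26) lowest for mixture minus IFNg.

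Among cell cycle genes 11 of 29 tested fell and 3 rose, with a median of -0.27. Mcm3, a subunit of the replicative helicase, had 28.5, 25.1 and 32.2 CPM in mixture libraries, against 49.4, 47.9 and 66.8 CPM in IFNg libraries (-0.93 ± 0.12, adjusted p = 1.87e-05). Cdkn1a, which encodes the cell cycle inhibitor p21, had 811, 942 and 632 CPM in mixture libraries, against 329.8, 358 and 296 CPM in IFNg libraries (1.28 ± 0.20, adjusted p = 0.000346). Ccnd2, a cyclin of entry into the cycle, had 233, 63.7 and 197 CPM in mixture libraries, against 118, 14.1 and 32.1 CPM in IFNg libraries (2.06 ± 0.44, adjusted p = 0.00516). For Mcm3 and Cdkn1a the groups did not overlap, while those of Ccnd2 did, and Ccnd2 was not called without the block (1.59, adjusted p = 0.468; adjusted p was 1.14e-05 to 0.468 over its 17 alternatives). The number of lower members was 4 without the block and 5 to 7 without mixture replicate 2 or 3 or IFNg replicate 2 or 3.

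Homeostatic microglial genes gave 2 higher and 7 lower of 25 tested (36% called, against 26.3% of all genes tested) with a median of -0.01. The 2 higher members were Mertk and Gpr84, and Gpr84 is also counted among the TNF and NF-kappaB response genes above. The list median was 0.13 without mixture replicate 1, 0.06 without mixture replicate 3, 0.07 without IFNg replicate 3 and 0.06 with RLE scaling. Without the block 2 rose and 3 fell, 3 rose and 2 fell without mixture replicate 1, 5 rose and 5 fell without mixture replicate 2, 2 rose and 3 fell without IFNg replicate 1 and 2 rose and 4 fell without IFNg replicate 3. Mef2c, a transcription factor that restrains inflammatory responses of microglia, had 53.3, 80.8 and 83.7 CPM in mixture libraries, against 129.9, 127 and 154 CPM in IFNg libraries (-0.93 ± 0.13, adjusted p = 4.73e-05). Tgfbr1, a receptor for TGF-beta, had 125, 105 and 203 CPM in mixture libraries, against 243, 289 and 262 CPM in IFNg libraries (-0.92 ± 0.16, adjusted p = 0.0004). The groups did not overlap for either gene. Of 25 disease-associated microglial genes, a signature described in models of neurodegeneration, 5 rose and 1 fell, with a median of 0.03. The called share of this list was 24%, near the 26.3% of all genes tested. With total counts as the only scaling 4 rose and 13 fell, with a median of -0.20. Without the block 2 rose and 0 fell, 5 rose and 0 fell without mixture replicate 2, 4 rose and 2 fell without mixture replicate 3 and 4 rose and 3 fell without IFNg replicate 3. Cst7, a cystatin inhibitor of proteases, had 59.4, 49.8 and 53.8 CPM in mixture libraries, against 8.13, 8.79 and 4.20 CPM in IFNg libraries (2.92 ± 0.43, adjusted p = 0.000204). Ch25h, which makes 25-hydroxycholesterol, had 438, 317 and 463 CPM in mixture libraries, against 41.9, 55.1 and 47.2 CPM in IFNg libraries (3.11 ± 0.55, adjusted p = 0.00178), and it overlaps Gm26902 on the opposite strand. These groups did not overlap, whereas the median of the list was close to that of all genes.

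Of 22 complement and Fc receptor genes 7 rose and 1 fell (36.4% called, against 26.3% of all genes tested), with a median of 0.17. Without the block 3 rose and 0 fell, 8 rose and 2 fell without mixture replicate 3, 4 rose and 2 fell without IFNg replicate 3, and with total counts as the only scaling 4 rose and 3 fell with a median of -0.07. C3, the central complement protein, had 240.0, 297 and 230.1 CPM in mixture libraries, against 39.0, 38.4 and 33.7 CPM in IFNg libraries (2.79 ± 0.25, adjusted p = 2.82e-06). C5ar1, the receptor for C5a, had 53.0, 162 and 167 CPM in mixture libraries, against 24.2, 24.5 and 64.1 CPM in IFNg libraries (1.80 ± 0.33, adjusted p = 0.00158). C3ar1, the receptor for C3a, had 2514, 3734 and 3884 CPM in mixture libraries, against 1550.3, 1759 and 2428 CPM in IFNg libraries (0.82 ± 0.10, adjusted p = 5.50e-06). C3 and C3ar1 did not overlap between the groups, and C5ar1 did. Of 22 phagocytic and scavenger receptors 5 rose and 5 fell, with a median of -0.13. Without the block 3 rose and 3 fell, and with total counts as the only scaling 4 rose and 12 fell, with a median of -0.36. Timd4, a receptor for phosphatidylserine, had 32.2, 13.4 and 40.2 CPM in mixture libraries, against 6.87, 7.55 and 6.40 CPM in IFNg libraries (1.98 ± 0.51, adjusted p = 0.00997), and it lost its call without IFNg replicate 1 (1.94, adjusted p = 0.0524) or 3 (1.84, adjusted p = 0.0596), with adjusted p of 0.000273 to 0.0596 over its 17 alternatives. Cd14, a co-receptor for bacterial lipopolysaccharide, had 436, 785 and 482 CPM in mixture libraries, against 203, 241 and 184 CPM in IFNg libraries (1.41 ± 0.11, adjusted p = 8.84e-08). Havcr2, which encodes TIM-3, had 31.7, 19.8 and 52.7 CPM in mixture libraries, against 94.2, 98.7 and 88.1 CPM in IFNg libraries (-1.47 ± 0.22, adjusted p = 0.000146). Neither Cd14 nor Havcr2 overlapped between the groups, and they moved in opposite directions.

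Glycolytic and hypoxia-responsive genes gave 3 higher and 4 lower of 18, with a median of -0.08. 4 rose and 1 fell without mixture replicate 2, and the median was 0.06; 3 rose and 3 fell without mixture replicate 1, and it was 0.05. 3 rose and 2 fell without mixture replicate 3, and likewise without IFNg replicate 1, without IFNg replicate 2, without the block and with RLE scaling, while with total counts as the only scaling 3 rose and 10 fell. Hk2, an inducible hexokinase, had 127, 78.7 and 121 CPM in mixture libraries, against 287, 284 and 317 CPM in IFNg libraries (-1.45 ± 0.13, adjusted p = 3.60e-07). Pfkfb3, which makes the activator of phosphofructokinase, had 289, 289 and 262 CPM in mixture libraries, against 133, 129.9 and 144 CPM in IFNg libraries (1.05 ± 0.16, adjusted p = 0.000101). Neither gene overlapped between the groups, and Hk2 overlaps Gm17034 on the opposite strand. Pdk1, which inhibits pyruvate dehydrogenase, was called lower (-0.72 ± 0.18, adjusted p = 0.00459), but not without mixture replicate 2 (-0.51, adjusted p = 0.0738) or without the block (-0.76, adjusted p = 0.0729), with adjusted p of 0.000292 to 0.137 over its 17 alternatives. Of 16 cholesterol genes 3 rose and 4 fell, with a median of -0.10; the median was 0.02 without mixture replicate 1, and with total counts as the only scaling 3 rose and 9 fell. Nr1h3, the oxysterol receptor LXR-alpha, had 15.1, 44.6 and 45.3 CPM in mixture libraries, against 12.8, 12.7 and 25.7 CPM in IFNg libraries (1.00 ± 0.23, adjusted p = 0.00419), with overlap between the groups, and without the block it was not called (1.04, adjusted p = 0.17; adjusted p was 1.60e-05 to 0.17 over its 17 alternatives).

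Set beside the single cytokines, which share the IFNg libraries with this comparison and are given as a description, the mixture went past all of them in part of the genes. All 3 mixture libraries lay above all 12 single-cytokine libraries in 528 of the 1739 higher genes (30.4%), against 601 of all 14626 genes (4.11%). They lay below all 12 in 627 of the 2105 lower genes (29.8%), against 731 of all genes (5%), and in 613 of the 627 they were below the unstimulated libraries too. The IFNg libraries are among the 12, and the higher and lower genes were called against IFNg. Shares above those of all genes were therefore set in advance and show nothing about these genes. The single cytokine with the highest mean was IFNa in 61.7% of the higher genes and TNFa in 26.0%, while IFNg was highest in 8.97% of them, against 26.1, 25.8 and 21.4% of all genes. Among the lower genes the lowest single cytokine was IFNa in 55.6% and TNFa in 29.5%, against 27.9 and 26.2% of all genes. The TNFa share was thus near that of all genes. Because the genes were called against IFNg, the share of IFNg was lowered in both lists by that choice, and the other shares were raised with it. The mixture mean was 57.8 times that of the highest single cytokine for Nos2, 33.1 times for Ccl5, 24.1 times for Cxcl11, 12.9 times for AW112010 and 9.91 times for Il1rn. For those 5 genes no single cytokine was near the level of the mixture. For Clec4e the mixture mean was 0.151 of that with TNFa, for Cxcl2 0.166, for Gpr84 0.348 and for Cd14 0.372. Clec4e had 18.6, 47.8 and 34.3 CPM in mixture libraries, against 182, 202 and 283 CPM in TNFa libraries (-2.76 ± 0.29, adjusted p = 5.77e-06). Rsad2 had 10778, 11961 and 9294 CPM in mixture libraries, against 5654, 7433 and 4082 CPM in IFNa libraries (0.86 ± 0.64, adjusted p = 0.432), in a comparison that called 18.4% of genes. Clec4e in the mixture was below its TNFa levels, and every mixture library was above every IFNa library for Rsad2.

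Adult microglia offered libraries that the comparison does not use, in which 45.7% of genes tested were called between MRL/lpr and MRL/MpJ. Of 1642 genes higher with the mixture and tested in adult cells, 400 were higher in MRL/lpr than in MRL/MpJ libraries (24.4%, against 23.3% of the genes of the background, and 13.42% of the adult higher list), and 410 were lower (25%, against 22.9%, and 13.99% of the adult lower list). Of 2086 lower genes, 611 were lower in MRL/lpr (29.3%, against 22.9%, and 20.85% of the adult list) and 485 higher (23.3%, against 23.3%, and 16.28%). The shares of the higher genes were near the background in both directions. Ikbke had 7.68, 3.99 and 10.3 CPM in adult MRL/lpr libraries, against 0.0740, 1.01 and 0.342 CPM in adult MRL/MpJ libraries, a log2 fold change of 3.97 ± 0.63 with an adjusted p of 0.000364 by the same test within the adult libraries. The adult groups did not overlap for Ikbke.

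Markers of other cells that CD11b selection could carry over were measured in the same libraries, and their part in the results was not tested. None of 8 monocyte, 10 astrocyte, 8 neuronal or 2 dendritic cell markers tested was called, and no NK cell marker was high enough to test. Summed astrocyte markers were 437, 59.9 and 105 CPM in mixture libraries, against 370, 67.0 and 92.6 CPM in IFNg libraries. Summed mural and fibroblast markers were 612, 154 and 153 CPM in mixture libraries, against 185, 72.9 and 165 CPM in IFNg libraries. Replicate 1 was the highest of both groups in these sums and in the neuronal sum. Over all genes tested 26.3% were called, and the marker counts given here are to be read beside that share. Of 9 tested border macrophage markers 1 was higher, of 9 neutrophil markers 1 was higher, and of 2 B cell markers both were lower. Of 5 oligodendrocyte markers 1 was higher and 1 lower, of 6 precursor markers 1 was higher, of 8 mural and fibroblast markers 1 was higher, and the single erythroid marker tested was not called. The summed endothelial markers were 157 to 215 CPM in mixture libraries and 56.3 to 93.9 CPM in IFNg libraries, and did not overlap. Oligodendrocyte sums (304 to 404 against 166 to 247 CPM) did not overlap either. The same held for T cell (33.1 to 80.8 against 16.1 to 27.1 CPM) and neutrophil sums (221 to 263 against 173 to 194 CPM). The sums of the other cell types overlapped. Flt1 (1.26 ± 0.20, adjusted p = 0.000213) and Kdr (1.83 ± 0.38, adjusted p = 0.00349), receptors for VEGF, were the 2 of 6 endothelial markers called, and Kdr was not called without the block (1.67, adjusted p = 0.111; 2.61e-06 to 0.111 over its 17 alternatives in adjusted p). Lck, a T cell kinase, had 72.6, 24.2 and 51.3 CPM in mixture libraries, against 9.64, 17.6 and 12.9 CPM in IFNg libraries (1.89 ± 0.43, adjusted p = 0.00453), while the T cell receptor genes Cd3d, Cd3e and Cd3g had at most 6 reads in any library and Cd8a had 0. The Lck call was lost in a fit of the 6 libraries alone (1.81, adjusted p = 0.127). It was lost too without replicate 1 (1.38, adjusted p = 0.0987) or 3 (1.84, adjusted p = 0.0682) of every neonatal group. Of 15 genes that rise with tissue dissociation 4 were higher and 1 was lower (33.3% called). Their sum was 2619 to 3043 CPM in mixture libraries and 2164 to 2298 CPM in IFNg libraries, and Dusp1, Junb and Egr2 above belong to them. Csf1r, the receptor for CSF1, was the 1 of 11 microglial markers called (-0.35 ± 0.09, adjusted p = 0.00459), and it was not called without mixture replicate 1 (-0.21, adjusted p = 0.115) or the block (-0.33, adjusted p = 0.379; 1.96e-05 to 0.379 over its 17 alternatives in adjusted p).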

How the data were processed

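Each value started from the counts of reads per gene that the authors deposited as 1 table of 55434 genes. Per the labels' protocols, RNA was taken with an RNeasy Mini kit and libraries were made with the NEBNext Ultra II Directional kit. The tools named in the submitters' processing notes are STAR 2.7.1a and cutadapt 2.1. The strand setting of the counting is not given in the sources used here.

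edgeR 4.0.16 in R 4.3.3 fitted the 18 neonatal libraries together (TMM, filterByExpr, robust quasi-likelihood, replicate number as block, 14626 genes), and the 6 adult libraries in a fit of their own without a block (13799 genes). Same-numbered libraries deviated together (correlations of 0.184 to 0.687 over 45 pairs), which is a check from the data, since the labels give the numbers but no shared origin. DESeq2 1.42.0 and limma-voom 3.58.1 were alternatives. The members, the 24 function lists (426 genes, 411 tested), the 16 marker lists and the rule for named genes were chosen with earlier results of these data known. Named were Ikbke, up to 3 called members of each list with the largest change at mean log2 CPM of at least 2, and the 10 largest changes each way; 1 gene named by this rule is not reported here. No pair of libraries was identical. On simulated data with 200 of 14230 genes changed, 61% of genes changed 2-fold and 90% of those changed 4-fold were recovered. Of 162 calls 6.79% were false. The comparison itself called 3844 genes, far more than were changed in the simulation, so these rates may not hold for it. Coordinates are from GENCODE M21 (mm10), which held 99.41% of the gene IDs.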

Additional observations from a re-analysis of the deposited data

How the results depend on the processing

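Without the replicate block 2089 genes passed, 944 higher and 1145 lower, of which 2088 were also called with it, in the same direction. Total counts as the only scaling gave 1139 higher and 4360 lower. Leaving out 1 library at a time gave 2908 to 3219 called genes, 1327 to 1922 higher and 1277 to 1582 lower. The lower count was 1297 without mixture replicate 1, 1277 without mixture replicate 2 and 1394 without mixture replicate 3. Leaving out replicate 1 of every neonatal group, added after seeing the data, gave 2106 called genes with 928 lower. The cause of these moves was not tested.

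Of the 78 genes named by rule none changed direction under any alternative, 68 kept their side of the threshold without the block, and 77 did with limma-voom. In a fit of the 6 libraries alone 8 lost their call: Cxcl2, Cxcl9, Egr2, Ifit1bl1, Nr1h3, Pdk1, Ppp1r16b and Tnfrsf1b. Leaving out a whole replicate number, 1, 2 or 3, cost 15, 12 or 4 of them their call, Acod1, Cd69, Ch25h, Cmpk2, Ifih1, Rsad2 and Tlr3 among them. Irf1, Irf8 and Socs1, not called, changed sign without mixture replicate 2 (ranges over single libraries left out: -0.65 to 0.19, -0.63 to 0.18 and -0.62 to 0.38) and without replicate 2 of every neonatal group (0.15, 0.10 and 0.33). Bcl3, not called, was -0.018 with total counts as the only scaling. Depth limits genes such as Il6, which had 3 reads over the IFNg libraries.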
